A study of Caenorhabditis elegans with 2 samples.

Results

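Among the genes listed near NHR-86 binding after R24, 5 genes of different steps of lipid metabolism are described here locus by locus. daf-22 and ndx-8 encode peroxisomal enzymes, fat-6 encodes a fatty acid desaturase, and lipl-5 and lips-9 belong to lipase families. They are 5 of the 189 genes in the authors' table of genes near NHR-86 binding. They were picked from that table by name and function, and a gene entered the table because of its binding signal. The enrichment values below are therefore the values that chose these genes. They are given as a description and were not tested.

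The signal came from chromatin immunoprecipitation followed by sequencing (ChIP-seq) with an antibody against GFP. The animals were whole C. elegans of strain VL648, which is mutant for unc-119(ed3) and carries the integrated transgene wwIs22. The transgene holds Pnhr-86::nhr-86ORF::GFP, the receptor fused to GFP under its own promoter, together with unc-119(+), which rescues the mutation. The strain thus carries nhr-86 in addition to its own copy, and the tagged receptor was present in both groups. Per the study's methods, the nhr-86 transcript was more abundant in this strain than in wild-type animals. Animals labelled as L4 were kept overnight at 20°C on plates with 70 µM of the immunostimulatory small molecule R24 or with 1% DMSO, the solvent control. The R24 group and the DMSO group each had 1 library, of 879943 and 2047658 tags, so no difference between them has a replicate check. Because chromatin of whole animals was pooled, binding in fewer cells and weaker binding in each cell cannot be told apart. The header of the peak list names libraries by treatment and number but not by strain. That they are the libraries of these 2 samples was taken from the treatment names and could not be checked by number. Neither an input library nor one from animals without the tag was used here.

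NHR-86 is a homolog of HNF4, a nuclear hormone receptor that in mammals controls genes of lipid metabolism in liver and gut. In C. elegans the intestine is the main site of fat storage and breakdown. Stored triglycerides are cleaved by lipases, desaturases place double bonds into fatty acyl chains, and peroxisomes shorten very long chains by beta-oxidation. The same peroxisomal pathway trims the side chains of ascarosides, the dauer pheromones.

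Each of the 5 genes was joined to 1 peak among the 220 that the R24 library had over the DMSO library, as 77.2% of the table genes were. The table gives no positions, so the join rests on the values it shares with the peak list. For ndx-8, fat-6, lipl-5 and lips-9 a full value matched, and for daf-22 only its decimals did, as for 11.6% of the table genes, so its peak is tied to it less firmly. The values of each peak are the pileup, which is the number of R24 tags covering the summit once each tag is extended to the fragment length of 296 bp, and the background, which is the DMSO signal scaled to the R24 depth. The fold enrichment is the pileup plus 1 tag over the background plus 1 tag, as the authors' peak caller gave it. The peak caller takes the background as the highest of the densities in the fragment window, in 1 kb and in 10 kb around the summit. Dividing the background by the depth factor of 0.430 returned a whole number of DMSO tags in 1 of these windows for all 220 peaks, so the tags behind each fold could be counted. The fragment window set the background at 108 peaks (49.1%), the 1 kb window at 90 and the 10 kb window at 22. A whole count in 1 kb is also whole in 10 kb, and the smaller window was reported. Intervals below are exact, at 95%, and cover counting error only.

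The peroxisomal genes had the highest enrichment of the 5. daf-22 (Y57A10C.6, WBGene00013284) encodes the thiolase of the last step of peroxisomal beta-oxidation and is required to make the dauer pheromones. Its peak lay on chromosome II, 12425743 to 12426184 (ce10), with the summit at 12425928. There the R24 library had 30 tags (20.2 to 42.8), and the DMSO library had 11 tags in the fragment window, which scaled to a background of 4.73 (2.36 to 8.46). The fold was 5.41. With no tag added, the depth-scaled ratio was 6.35, with a wide interval (3.09 to 14.0) set by the 11 DMSO tags, and with 5 tags added to each side the fold fell to 3.60. The −log10 q of the peak was 10.9, and its length was 442 bp.

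ndx-8 (Y87G2A.14, WBGene00003585) encodes a Nudix hydrolase of peroxisomes that cleaves coenzyme A. Its peak lay on chromosome I, 13500390 to 13500916, with the summit at 13500638 and a length of 527 bp. The R24 library had 34 tags (23.5 to 47.5), the highest pileup of the 5, over a background of 6.23 (4.61 to 8.24) that came from 49 DMSO tags in 1 kb. The fold was 4.84, and the ratio with no tag added was 5.46 (3.42 to 8.62). Because the caller kept the highest density, the DMSO library can have held no more than 14 tags in the fragment window at this summit, against the 34 of the shallower R24 library. The −log10 q was 10.7, close to that of daf-22.

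fat-6 (VZK822L.1, WBGene00001398) encodes a desaturase that makes oleic acid from stearic acid, a task it shares with its paralog fat-7. Its peak on chromosome IV, 11913189 to 11913795 (summit 11913552), was the longest of the 5, at 607 bp. The R24 library had 33 tags (22.7 to 46.3), as many as at the peroxisomal genes within counting error. The DMSO library had 79 tags in 1 kb, a background of 10.0 (7.96 to 12.5), which was 2.13 times that of daf-22 and 1.61 times that of ndx-8. The fold was accordingly 3.08 and the ratio with no tag added 3.28 (2.12 to 4.99). fat-6 therefore differed from daf-22 and ndx-8 in the background more than in the pileup, although its background interval still overlapped theirs. The background of fat-6 is a density over 1 kb, while that of daf-22 is a count in the fragment window. In 1 kb the DMSO library can have held no more than 37 tags at daf-22, against 49 at ndx-8 and 79 at fat-6. This difference was not tested. In the fragment window at the fat-6 summit the DMSO library can have held no more than 23 tags. How many it held there is not known. The −log10 q was 5.03.

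The lipase genes had the fewest R24 tags. lipl-5 (ZK6.7, WBGene00022642) belongs to the lysosomal acid lipase family, members of which are induced by fasting and break down stored fat. Its peak lay on chromosome V, 386034 to 386364 (summit 386256, length 331 bp). The R24 library had 20 tags (12.2 to 30.9), the lowest pileup of the 5. The background of 4.32 (2.995 to 6.04), from 34 DMSO tags in 1 kb, was also the lowest of the 5, so the fold reached 3.94 and the ratio with no tag added 4.62 (2.52 to 8.27). The DMSO library can have held no more than 10 tags in the fragment window. The −log10 q was 4.63.

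lips-9 (F58G1.5, WBGene00010267) belongs to a separate family of lipase-related genes. Its peak lay on chromosome II, 12933538 to 12933833, with a length of 296 bp, the shortest the caller lists. The summit at 12933560 was only 22 bp from the start of the peak. The R24 library had 22 tags (13.8 to 33.3) over a background of 6.88 (3.93 to 11.2), from 16 DMSO tags in the fragment window. This gave the lowest fold of the 5, 2.92, a ratio with no tag added of 3.20 (1.61 to 6.52) and a −log10 q of 2.86. daf-22 had a fold 1.85 times that of lips-9.

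**Figure D1:**
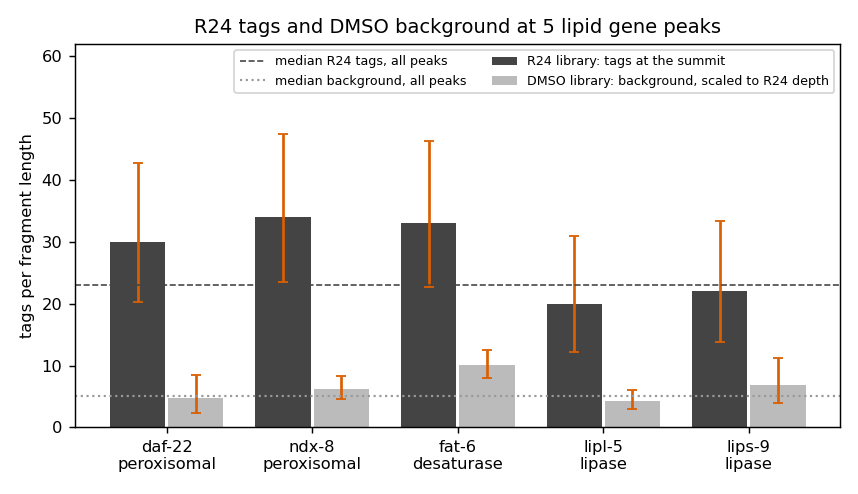
R24 tags at the summit (dark bars) and DMSO background scaled to the R24 depth (light bars), in tags per fragment length, at the peaks of 5 genes, with 1 library per group. Orange lines are exact 95% Poisson intervals and cover counting error only, and horizontal lines are the medians of all 220 peaks. daf-22, ndx-8 and fat-6 have 30 to 34 R24 tags and the lipases 20 and 22, while the background is highest at fat-6 (10.0).

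The folds of both peroxisomal genes lay above those of the desaturase and of both lipases. The median fold was 5.13 for the 2 peroxisomal genes and 3.08 for the other 3, a difference of 2.05, and the lower peroxisomal value exceeded the highest other value by 0.895. Leaving out each gene in turn gave differences of 1.62 to 2.34, and with 5 tags added to pileup and background the difference was 1.01. The intervals of all 5 ratios overlapped, however, so counting error alone could span this order. The peroxisomal and lipase genes had similar median backgrounds, 5.48 and 5.60 tags, and differed in median pileup, 32 and 21 tags. The pileup intervals of all 5 genes overlapped, however. The 2 lipases also differed from each other in background (4.32 at lipl-5 and 6.88 at lips-9) more than in pileup (20 and 22 tags). Their background intervals overlapped, however. In both the peroxisomal and the lipase class, 1 background came from 1 kb and the other from the fragment window, so these backgrounds are not measured alike. The desaturase gene had the pileup of the first class and the highest background of the 5. With 1 to 2 genes in each class and 1 library per group, no test was made.

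The median fold of all 220 peaks was 3.90 (range 2.31 to 11.1), and the 5 genes ran from 2.92 to 5.41. Of the 5 genes, 3 had a fold above that median, where 50% of peaks do, and 1, daf-22, had a fold of at least 5, where 17.3% do. daf-22 was 28th from the highest fold, ndx-8 40th, lipl-5 107th, fat-6 200th and lips-9 208th. In pileup fat-6 instead stood 27th, next to ndx-8 at 25th, and in background it was 19th. lips-9 was 208th in −log10 q as well, while daf-22 and ndx-8 were 23rd and 25th and were the 2 genes above the median of 5.28 (50% of peaks). The ranks in fold and in −log10 q share their inputs and are not independent of each other.

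**Figure D2:**
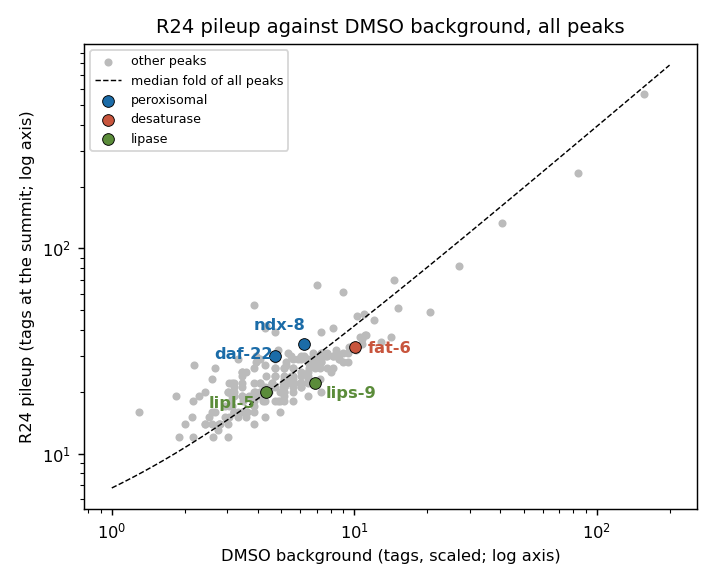
R24 pileup (vertical axis, tags, log scale) against scaled DMSO background (horizontal axis, tags, log scale) for the 220 peaks, with the 5 genes coloured by class. The dashed line is the median fold of 3.90. daf-22 and ndx-8 lie above it, lipl-5 close to it, and fat-6 and lips-9 below it.

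Peak length, which comes from the same comparison of the libraries but does not enter the fold, split the genes in another way. The peaks of daf-22, ndx-8 and fat-6 were longer than the median peak of 359 bp, where 49.5% of peaks are, and those of both lipases were shorter. fat-6 was 35th in length, ndx-8 49th and daf-22 68th, against 145th for lipl-5. The minimum length of lips-9 was shared by 14 peaks (6.36%). The longer peaks were also those of higher pileup.

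**Figure D3:**
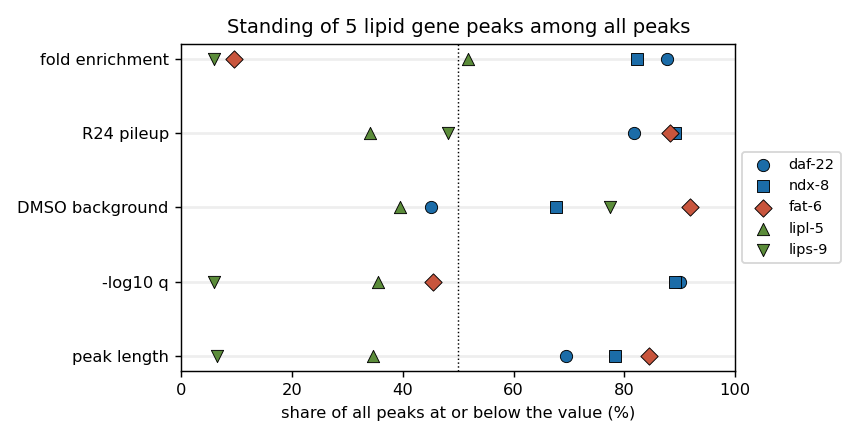
Share of the 220 peaks at or below each gene's value (horizontal axis, %) for 5 measures, with the dotted line at 50%. The peroxisomal genes are on the right in every measure but the background of daf-22 (45.0%), fat-6 changes from 9.55% in fold to 88.2% in pileup, and lips-9 is below 7% in fold, −log10 q and length.

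The background from the DMSO library was above the genome average at the 5 loci as a point value, though not beyond counting error at each. With the 90 Mb that the peak caller assumes for worms, an average position would hold 2.89 tags at the R24 depth. The background was 1.63 times this average at daf-22, 2.15 at ndx-8, 3.47 at fat-6, 1.49 at lipl-5 and 2.38 at lips-9. The background interval of daf-22 (2.36 to 8.46) included the average, and that of lipl-5 (2.995 to 6.04) began just above it. Across all peaks 89.5% exceeded it, with a median of 1.78 times, so this was common to the peaks. The background is also the highest of the densities considered, which places it above the average at many positions. In the R24 library the summits held 10.4 (daf-22), 11.7 (ndx-8), 11.4 (fat-6), 6.91 (lipl-5) and 7.60 (lips-9) times the average. How much of the DMSO signal came from the tagged receptor was not tested, since neither an input nor an untagged library was used.

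Within 10 kb the peaks of both lipase genes had another listed peak and the others did not, but for lips-9 this depended on not merging close peaks. Another peak lay within 10 kb at 2 of the 5 genes, against 24.1% of all peaks. Next to lipl-5, a peak at 387133 to 387722 had its summit 1226 bp away and was joined to the adjacent gene ZK6.6. It had 21 R24 tags (13 to 32.1), a background of 4.71 and a fold of 3.86. A further peak, 2620 bp away at 388737 to 389032, was joined to no gene and had 17 tags (9.90 to 27.2), a background of 3.87 and a fold of 3.70. The 3 peaks at this locus were thus alike in pileup, background and fold, within counting error.

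At lips-9 the neighbour was closer still. A peak at 12934005 to 12934314, joined to no gene, had its summit 492 bp from that of lips-9, and 171 bp separated the peaks. It had 16 R24 tags (9.15 to 26.0) over a background of 4.96, from 39 DMSO tags in 1 kb, a fold of 2.85 and a −log10 q of 1.90, the lowest among the peaks described here. With peaks under 1 kb apart merged into 1, lips-9 had no neighbour within 10 kb and only lipl-5 did. The share of all peaks with a neighbour was counted without merging only. The next peak, 11113 bp away at 12944395 to 12944931, was joined to sup-6, annotated as a small nuclear RNA gene, and had 30 tags, the background of 6.88 also found at lips-9, and a fold of 3.94. The nearest peak to ndx-8 was 24983 bp away, joined to Y48G10A.3, with a fold of 4.58. The nearest peak to daf-22, which was that of lips-9 on the same chromosome, was 507632 bp away, and the nearest to fat-6 was 522509 bp away.

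**Figure D4:**
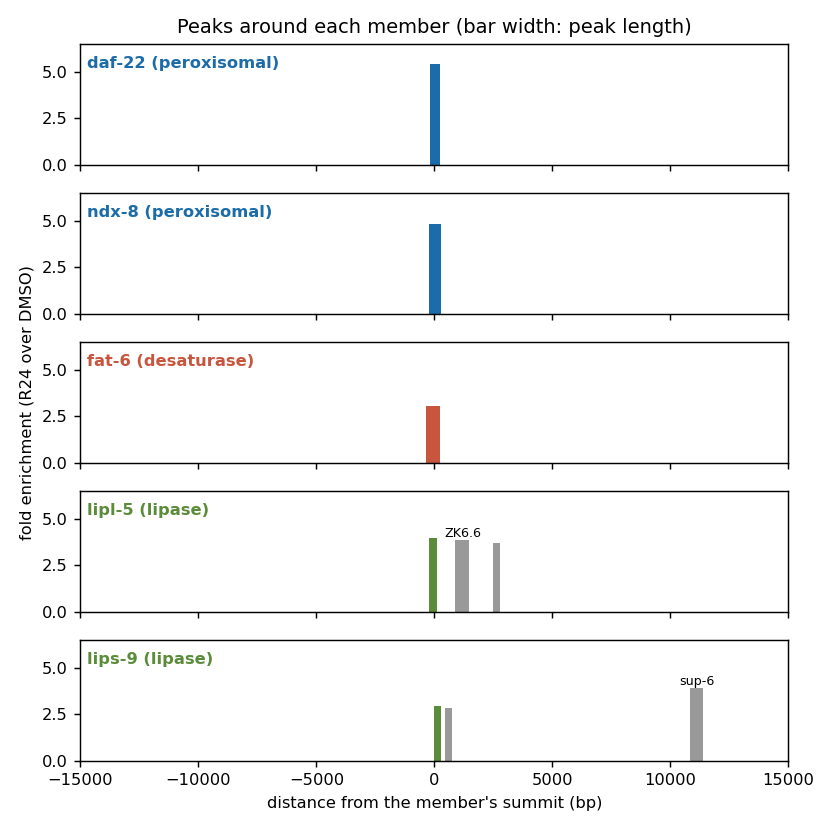
Peaks within 15 kb of the summit of each gene's peak (horizontal axis, bp from that summit), with fold enrichment as bar height and peak length as bar width. Coloured bars are the peaks of the 5 genes and grey bars other peaks, named where joined to a gene. lipl-5 and lips-9 have close neighbours of nearly the same fold (3.70 to 3.86 and 2.85), and daf-22, ndx-8 and fat-6 stand alone.

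In the order of annotated protein-coding genes and pseudogenes, 10 genes lie directly beside the 5, and 1 of them, ZK6.6 next to lipl-5, was in the authors' table, which held 0.388% of all annotated genes and 0.766% of protein-coding genes. The direct neighbours of daf-22 are sre-25 and Y57A10C.8, those of ndx-8 soem-1 and Y87G2A.19, those of fat-6 VZK822L.2 and ZK822.9, and those of lips-9 dct-18 and arrd-10. Of 50 genes within 5 places on either side, 2 were listed, ZK6.6 and ndrr-1 (Y48G10A.3), which lies near ndx-8. The nuclear hormone receptor genes nhr-254 and nhr-253, which follow ZK6.6, were not listed. Because the positions of the peaks are in ce10 and the gene annotation was of another build, the distance from a peak to the start of its gene was not analysed here.

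The 5 genes were scattered over lipid pathways whose other members were mostly not in the table. Of 10 genes of peroxisomal beta-oxidation, daf-22 was the 1 listed gene. The acyl-CoA oxidase genes acox-1.1 to acox-1.6 and acox-3, the hydratase gene maoc-1 and the dehydrogenase gene dhs-28, which act before daf-22 in the same pathway, were not listed. None of 17 genes of peroxisome biogenesis and of the peroxisomal membrane was listed. ndx-8 was the 1 listed gene of 8 Nudix genes, and fat-6 was the 1 of 7 desaturase genes, without its paralog fat-7. None of 9 elongase genes was listed. lipl-5 was 1 of 8 lipl genes and lips-9 was 1 of 14 lips genes. None of 30 genes of mitochondrial beta-oxidation and none of 19 genes of lipid storage and transport, among them the yolk protein genes, was listed. Over all annotated genes 0.388% were listed and over protein-coding genes 0.766%. Lists of 7 to 30 genes would therefore rarely hold a listed gene, and an absence says little.

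Among 10 regulators of lipid genes, hlh-30 was listed, while nhr-49, nhr-80, sbp-1 and mdt-15 were not. hlh-30 encodes the homolog of mammalian TFEB, a transcription factor that induces lysosomal lipase genes in fasting. Its peak (chromosome IV, 4024145 to 4024496) had 22 R24 tags (13.8 to 33.3), a background of 6.45 from 15 DMSO tags in the fragment window, a fold of 3.09 and a −log10 q of 3.22. Beside the 5 genes it was the 1 listed gene of the remaining 127 in the lists. That is close to the share of all annotated protein-coding genes that were listed, 0.766%. The count depends on which genes were put in the lists, which do not cover all of lipid metabolism. dif-1, sams-1, spl-1 and obr-1, for example, were listed by the authors but were in none of these lists, and their part in lipid metabolism was not examined.

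The peak most like that of lips-9 was that of hlh-30, but another joined peak, with 23 tags and a background of 7.25, was nearly as close. Such likeness says nothing about a shared function. Likeness was the distance in log2 pileup and log2 background over the 2 libraries, among peaks joined to a gene, and was 0.09 for lips-9 and hlh-30. The peak most like that of fat-6 was at F57F5.1 (V, 12004620 to 12004915), with the same 33 tags, the same background of 10.0 and the same fold of 3.08, a distance of 0.00. It was 296 bp long, against 607 bp at fat-6. lipl-5 was closest to nspa-9 (fold 3.96, distance 0.01), daf-22 to the ribosomal protein gene rpl-15 (fold 4.67, distance 0.17) and ndx-8 to F22D6.2 (fold 4.13, distance 0.17).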

How the data were processed

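The authors mapped reads with BWA (0.7.15) to the ce10 genome, as the labels state, filtered the alignments with SAMtools after Picard, and used MACS2 (2.1) for peaks. Per the file headers, MACS 2.1.1.20160309 compared the R24 with the DMSO library at a q cutoff of 0.05, with 1 tag per position, a fragment of 296 bp and a human genome size of 2.7 Gb. The study's methods instead give no model and a p threshold. The header numbers its libraries and the labels do not. The deposited peak list holds the pileup (signal), fold enrichment (a ratio) and −log10 p and −log10 q, used as the authors made them. The deposited gene table holds a value headed fold enrichment, taken here as a score because it is 1.325 times a −log10 q or a fold of a peak, beside −log10 p and −log10 q columns of the authors' comparison, which were not used.

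The background was recovered from pileup and fold. From both, −log10 p was recomputed to within 0.000322 of the list, and DMSO counts were whole within 0.002 tags (0.02 in 10 kb). A gene was joined to the 1 peak on its chromosome that held its value (tolerance 6e-06), where joined genes kept the order of their peaks, which gave 146 of 189 genes (77.2%). ndx-8, fat-6, lipl-5 and lips-9 matched a −log10 q in full. daf-22 matched in the decimals alone, as 11.6% of the table genes did. The value of fat-6 was shared by a peak on chromosome V and was placed by its chromosome. RefSeq annotation (WBcel235) held 182 of the 189 genes (96.3%) and gave names, biotypes, chromosomes and gene order. Promoter and protein sequences were not used here.

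Intervals are exact Poisson for tags and exact binomial (Clopper-Pearson) for ratios. Named genes were the 5 members, listed genes of 10 lipid lists, genes at peaks within 10 kb, direct neighbours and the most similar joined peak of each. sup-6, Y48G10A.3, nhr-254, nhr-253, dif-1, sams-1, spl-1, obr-1 and the unlisted pathway genes were named after their values were seen. The members and lists were chosen with earlier results of these data known. Alternatives changed the tags added, the background floor, the match, the neighbour distance and the comparison peaks. Python 3.11.15, SciPy 1.17.1 and pandas 2.3.3 were used. The counting and joining steps were tested on simulated data.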

Additional observations from a re-analysis of the deposited data

How the results depend on the processing

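Of 37 alternatives, 10 of them chosen after seeing the data, 36 left a fold or the difference of median folds within the range its counting intervals allow, or a count within 1.5 times, and none turned a direction. With peaks under 1 kb apart merged, 1 in place of 2 genes had another peak within 10 kb, since the peak of lips-9 and its neighbour became 1. The worm genome size changed no value of the 5 genes, as each background was already above that floor, and so shows nothing about stability. The ratio with no tag added is the estimate that its interval was built around, so it could not fall outside. Taking the highest DMSO count the fragment window allows only rounded the same background down to a whole tag. The number of 36 is therefore not a measure of stability. With 5 tags added the folds fell to 3.60 (daf-22), 3.47 (ndx-8), 2.52 (fat-6), 2.68 (lipl-5) and 2.27 (lips-9), and the difference in median fold between the classes to 1.01. With matches in full only, daf-22 was not joined to a peak and 4 genes were. Leaving out the gene whose value also matched another peak, fat-6, left 4 as well. No paired analysis was possible because each group had 1 library, and no library could be left out. Pileups of 20 to 34 tags limit the precision of every fold.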
